A study of Mus musculus with 4 samples.

Results

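The genes of oxidative phosphorylation, the mitochondrial pathway that makes ATP, were followed in pancreatic islets of fasted and refed mice of 2 genotypes. They were taken by name: symbols starting with Nduf, Uqcr, Atp5 or Cox followed by 4 to 8, together with Sdha, Sdhb, Sdhc, Sdhd, Cyc1 and Cycs. Of 92 such symbols among 23235, 87 had a usable value in every library and a mean of at least 1 FPKM (fragments per kilobase of transcript and per library total), and they are described here against all 11953 genes that met the same criteria. By what is known of each protein, 36 of the 87 are subunits of complex I, 4 of complex II, 9 of complex III, 13 of complex IV and 15 of complex V, 1 is the electron carrier Cycs, and 4 are Ndufaf assembly factors of complex I. The remaining 5, Ndufa4l2, Cox7a2l, Cox4nb, Atp5s and Atp5sl, match by name only and were not counted as subunits.

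All mice were C57BL/6, either wild type (WT) or KR. In KR mice, as is known from the study, the FoxO1 gene is altered so that arginine stands in for the lysines that can be acetylated. Each genotype was sampled after a fast and after a fast with 6 h of refeeding; the titles put the fast at 48 h and the protocol text at 24 h. Per the protocol text, islets of 3 animals of each genotype were pooled, and each of the 4 groups has 1 library, so a difference between single libraries stands without replicates. Where 4 values follow each other without labels, the fasted pair comes before the refed pair and WT before KR in each. An islet holds several hormone cell types as well as vessel, immune and stromal cells, and in such bulk samples fewer cells of a type and less RNA per cell cannot be told apart.

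Complexes I and II pass electrons from NADH and succinate to ubiquinone, complex III passes them on to cytochrome c, and complex IV passes them to oxygen. Complexes I, III and IV pump protons while they do so, and complex V, the ATP synthase, uses the returning protons to make ATP. In beta cells, ATP made in this way closes potassium channels and so couples glucose to insulin release. Subunits are called core or catalytic where they carry out the reaction and supernumerary where they surround that core. In complex III, core protein is only the customary name of Uqcrc1 and Uqcrc2, and does not mean that they carry out the reaction. The subunits encoded in the mitochondrial genome are not among the genes analysed here.

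The libraries differed in depth. The bounds deposited with each value imply 26407138 and 25710982 fragments in fasted WT and KR and 18096556 and 11074655 in refed WT and KR, so the refed libraries were the shallower ones. The median oxidative phosphorylation gene rested on 2156, 2090, 2075 and 1144 fragments, in the same order, and only Ndufs5, Cox7a1 and Ndufa4l2 had under 20 in any library. The hormone transcripts that define islets were high in every library: Gcg, the glucagon gene, stood at an FPKM of 21258, 26030, 26161 and 24882, and Iapp, a beta cell peptide gene, at 35463, 46126, 52784 and 66975. The insulin gene Ins2 has no usable value in fasted KR.

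Promoter sequence is shown for 7 genes picked by hand, which do not stand for the rises as a whole. Cycs, Atp5k, Sdhd, Atp5h and Uqcrh are large rises that hold here a motif of a factor known to drive respiratory genes. Ndufa4 is a large rise that holds none, and Atp5d did not rise. Other large rises had neither NRF1 nor ETS letters in the windows described below and are not shown. Among them are Cox7a1, Atp5o, Ndufa3 and Ndufc2, with log2 changes of 0.98, 0.74, 0.69 and 0.64 on refeeding. Each line gives the 120 bases before the RefSeq start, in the direction of the gene, on build GRCm38.p6. Capitals mark the letters GCATGCGC of NRF1 or CCGGAAG of the ETS family, to which GABP belongs, on either strand.
Cycs, chr6:50566570-50566689, minus strand: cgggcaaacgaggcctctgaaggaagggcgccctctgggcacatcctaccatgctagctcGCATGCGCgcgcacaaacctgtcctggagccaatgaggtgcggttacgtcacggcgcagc
Atp5k, chr5:108434400-108434519, minus strand: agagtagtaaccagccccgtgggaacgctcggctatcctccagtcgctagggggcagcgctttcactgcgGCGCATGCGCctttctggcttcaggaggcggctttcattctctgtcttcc
Sdhd, chr9:50603850-50603969, minus strand: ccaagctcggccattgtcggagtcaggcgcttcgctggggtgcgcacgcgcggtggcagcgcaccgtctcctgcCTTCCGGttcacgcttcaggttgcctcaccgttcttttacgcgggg
Atp5h, chr11:115419920-115420039, minus strand: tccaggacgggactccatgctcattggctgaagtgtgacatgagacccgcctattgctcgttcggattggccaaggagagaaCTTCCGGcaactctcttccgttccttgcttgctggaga
Uqcrh, chr4:116075071-116075190, minus strand: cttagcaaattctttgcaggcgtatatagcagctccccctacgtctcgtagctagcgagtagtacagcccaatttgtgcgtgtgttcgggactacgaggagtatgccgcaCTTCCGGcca
Ndufa4, chr6:11907451-11907570, minus strand: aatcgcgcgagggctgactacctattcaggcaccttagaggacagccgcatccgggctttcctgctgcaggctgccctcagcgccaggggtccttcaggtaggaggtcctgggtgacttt
Atp5d, chr10:80142155-80142274, plus strand: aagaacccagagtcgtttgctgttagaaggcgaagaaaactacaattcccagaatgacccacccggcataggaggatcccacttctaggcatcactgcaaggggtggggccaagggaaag

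RefSeq windows reaching from 250 bases before to 50 bases after the start were found for 72 of the 87 genes. The NRF1 letters were in a window of 12 of these 72 (16.7%), against 3.05% of 27025 genes with a window. These 27025 are all genes with a window, whether or not they were tested here, and the tested genes alone were not compared. The ETS letters were in 17 (23.6%, against 9.93%), the letters AAGATGG of YY1 in 12 (16.7%, against 7.28%), and the letters CAAGGTCA of the estrogen-related receptors in 4 (5.56%, against 1.76%). Both strands were searched, matches of different motifs may overlap in a window, and a match is a run of letters and not a shown binding site.

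Setting refed beside fasted islets asks how the islet transcriptome moves between the 2 feeding states. Subunits of every complex rose with refeeding, and the median change over the 87 genes was 0.43 on the log2(FPKM + 1) scale, or 1.35-fold, in the fit over the 4 libraries. In that fit (limma, Benjamini-Hochberg adjusted p under 0.05), 74 of 87 genes rose, 2 fell and 11 did not pass. Over all genes tested, 27.7% rose and 29.2% fell (56.9% in either direction), and the median change was -0.01. The 4 libraries give 2 refeeding pairs that share no library: the median over the 87 was 0.47 in WT and 0.40 in KR, and 78 of the 87 were above 0 in both pairs, against 41.9% of all genes tested. Without the filter on low values the same fit called 0 genes over the whole table, although 65 of the 87 then had a positive change with an unadjusted p under 0.05, against 12.6% of all genes in that fit.

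**Figure D1:**
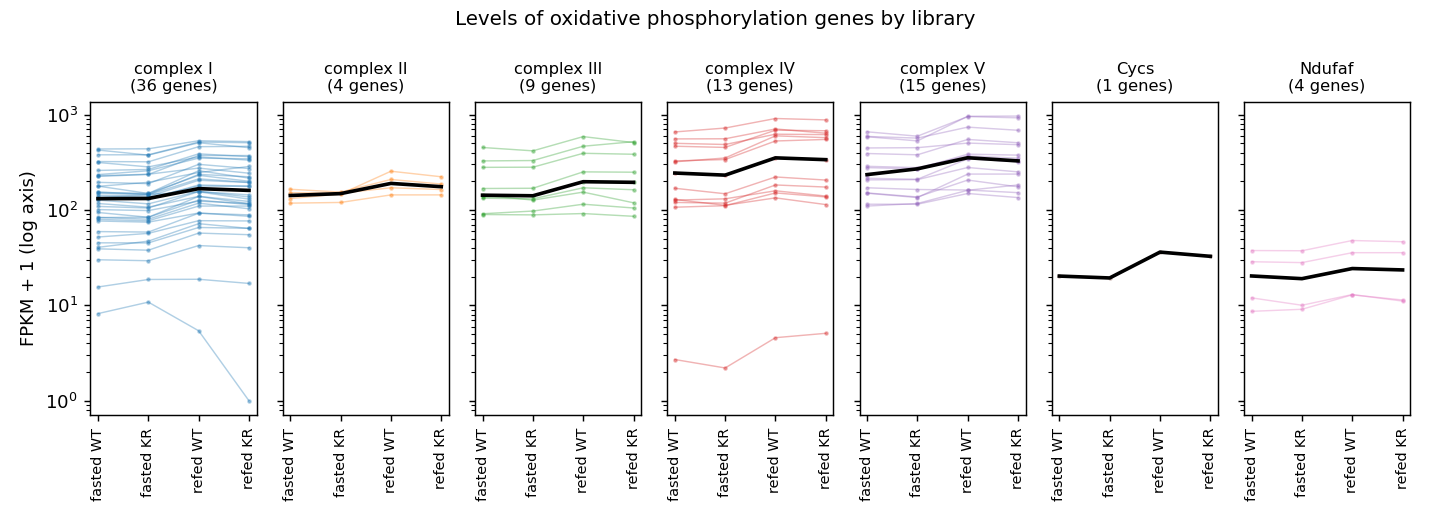
Level of each gene (FPKM + 1, log axis) in the 4 pooled libraries, by complex; each thin line is 1 gene and the thick line is the median. The medians of complexes I to V are higher in both refed libraries than in both fasted ones, and the line that falls to the floor is Ndufs5.

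Complex I, which takes electrons from NADH, had 32 of 36 subunits higher after refeeding, 1 lower and 3 that did not pass, with a median change of 0.49. Of its 7 core subunits, among them those with the flavin and the iron-sulfur clusters, 6 rose, with a median of 0.42, and of its 29 supernumerary subunits 26 rose, with a median of 0.50. Median transcript lengths of the core and the supernumerary subunits were 1623 and 875 nucleotides. The part of length in the difference was not tested. Ndufa3, a small supernumerary subunit, had the largest rise in the complex: its FPKM was 224 and 235 in fasted WT and KR and 372 and 371 in refed WT and KR. Both refed values lay above both fasted ones, and the fitted change was 0.69 ± 0.05 (SE, 4 libraries; limma adjusted p = 2.41e-05). Ndufc2, another supernumerary subunit, stood at 148, 144, 235 and 222 in the same order, with a change of 0.64 ± 0.05 (limma adjusted p = 3.43e-05).

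Among the core subunits the flavoprotein subunit Ndufv2 stood at 82.4 and 82.9 in fasted WT and KR and 126 and 113 in refed WT and KR, a change of 0.52 ± 0.06 (limma adjusted p = 0.000199). Ndufs7, which holds the iron-sulfur cluster next to the ubiquinone site, did not pass: its FPKM was 153, 145, 154 and 129, with the refed KR library lowest and the fitted change at -0.08 ± 0.06 (limma adjusted p = 0.308). Other core subunits rose as well: Ndufs1, the largest, by 0.52, Ndufs8 by 0.50, Ndufv1, which binds NADH, by 0.27, and Ndufs3 by 0.24 (limma adjusted p between 0.000151 and 0.0074). The other 2 subunits that did not pass were Ndufab1, the mitochondrial acyl carrier protein, with a change of 0.07 ± 0.10, and Ndufb8, with 0.15 ± 0.07. The highest complex I level was that of Ndufa6, a supernumerary subunit, at 435, 437, 531 and 520, which rose by a smaller step of 0.27 ± 0.05 (limma adjusted p = 0.00217).

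Ndufs5, a supernumerary subunit of complex I, was the exception in that complex, and its value is uncertain. Its FPKM was 7.21 and 9.83 in the fasted WT and KR libraries and 4.42 in the refed WT one, and it was 9.59e-05 in refed KR (upper bound 0.613), on 30, 41, 12 and 0 implied fragments. The fit counts it as lower after refeeding (limma adjusted p = 0.00792, and 0.425 with a robust prior), but no fold is given against a library with no implied fragment. Its locus on chromosome 4, bases 123389953 to 123395429 of mm9, is covered over 99.5% of its span by a row named BC002163, whose FPKM was 129, 115, 170 and 158 with a status of low data in every library. Which of the 2 rows received the fragments of this locus cannot be told from the deposited values.

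All 4 subunits of complex II, the succinate dehydrogenase that also serves the citric acid cycle, rose, with a median of 0.29. Sdhd, a membrane anchor, rose most: its FPKM was 131 and 146 in fasted WT and KR and 254 and 222 in refed WT and KR. The 4 values form a low fasted pair and a high refed pair, and the fitted change was 0.78 ± 0.08 (limma adjusted p = 8.45e-05). The other anchor, Sdhc, stood at 117, 119, 143 and 143, with a change of 0.27 ± 0.05 (limma adjusted p = 0.00283). The iron-sulfur subunit Sdhb changed by 0.31 ± 0.05 and the flavoprotein Sdha by 0.15 ± 0.05 (limma adjusted p = 0.00145 and 0.0427).

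Complex III, the cytochrome bc1 complex, had 7 of 9 subunits higher, with a median of 0.34. All 5 of its supernumerary subunits rose, with a median of 0.50, led by Uqcrh, the hinge protein. Uqcrh stood at 326 and 329 in fasted WT and KR and 465 and 519 in refed WT and KR, a change of 0.58 ± 0.06 (limma adjusted p = 6.91e-05). Uqcr11 followed at 167, 168, 250 and 248, with 0.57 ± 0.05 (limma adjusted p = 5.46e-05). The other 4 are the catalytic subunits Cyc1 and Uqcrfs1 and the proteins named core, Uqcrc1 and Uqcrc2. Of these 4, 2 rose, with a median over the 4 of 0.11. The median transcript length was 535 nucleotides for the 5 supernumerary subunits and 1586.5 for these 4. The part of length in the difference was not tested.

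The heme subunit Cyc1, or cytochrome c1, was at 142 and 126 in fasted WT and KR and 153 and 118 in refed WT and KR, so the refed values lie on either side of the fasted ones. Its fitted change was 0.00 ± 0.06 (limma adjusted p = 0.974). The core protein Uqcrc1 was at 88.7, 87.9, 90.8 and 84.9, with -0.01 ± 0.06 (limma adjusted p = 0.913). The other 2 proteins of this group rose: the core protein Uqcrc2 by 0.34 ± 0.05 and the Rieske iron-sulfur protein Uqcrfs1 by 0.22 ± 0.07 (limma adjusted p = 0.000873 and 0.0238).

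Cycs, the soluble cytochrome c that links complexes III and IV, had one of the largest rises. Its FPKM was 19.3 and 18.4 in fasted WT and KR and 35.2 and 31.7 in refed WT and KR, and the fitted change was 0.80 ± 0.07, or 1.74-fold (limma adjusted p = 3.43e-05). Per transcript length, Cycs lay below the median subunit of every complex in all 4 libraries.

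Complex IV, the cytochrome c oxidase, had 12 of 13 nuclear subunits higher, with a median of 0.43. Ndufa4, first described with complex I and now placed in complex IV, stood at 319 and 350 in fasted WT and KR and 598 and 572 in refed WT and KR, a change of 0.81 ± 0.06 (limma adjusted p = 2.26e-05). Cox6c, a small supernumerary subunit, stood at 326, 337, 528 and 548, with 0.70 ± 0.05 (limma adjusted p = 1.94e-05). In both genes the refed libraries were clear of the fasted ones. Cox8a had the highest level of the complex, at 657, 722, 909 and 879, and rose by 0.38 ± 0.06 (limma adjusted p = 0.000787). Cox7c, Cox5b and Cox5a, supernumerary subunits with no restricted form among the genes taken, rose by 0.43, 0.41 and 0.21 (limma adjusted p = 0.000258, 0.000772 and 0.0275).

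Several complex IV subunits exist as a general and a tissue-restricted form. The general forms Cox4i1, Cox6a1, Cox6b1, Cox7a2 and Cox8a rose by 0.33, 0.27, 0.57, 0.53 and 0.38 on the log2 scale, as did Cox7b by 0.59. Cox6a2, the form best known from heart and skeletal muscle, was present at an FPKM of 128 and 111 in fasted WT and KR and 133 and 113 in refed WT and KR. It was the complex IV subunit that did not pass, with 0.04 ± 0.06 (limma adjusted p = 0.543), and both KR values were below both WT values. Of the 4 muscle markers listed, Myh4 was at 0 in every library and Mb in 3 of 4, Ckm lay above 0 in each library but under 0.3 FPKM, and Acta1 stood at 2.03, 1.95, 1.74 and 1.95.

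Cox7a1, also a muscle form, was near the level threshold at 1.71, 1.21, 3.59 and 4.10, on 7, 5, 10 and 7 fragments. Its fitted change of 0.98 ± 0.14 (limma adjusted p = 0.000462) was the largest of the 87, and its 95% counting interval in the WT pair, from -0.22 to 1.73, included 0. The other restricted forms were below 1 FPKM: Cox4i2 lay between 0.37 and 0.542, Cox6b2 was at 0.598 and 0.499 in the fasted libraries and at 0 in the refed ones, Cox7b2 was at 0.345 in fasted WT and at 0 elsewhere, and Cox8b and Cox8c were at 0 in every library.

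**Figure D2:**
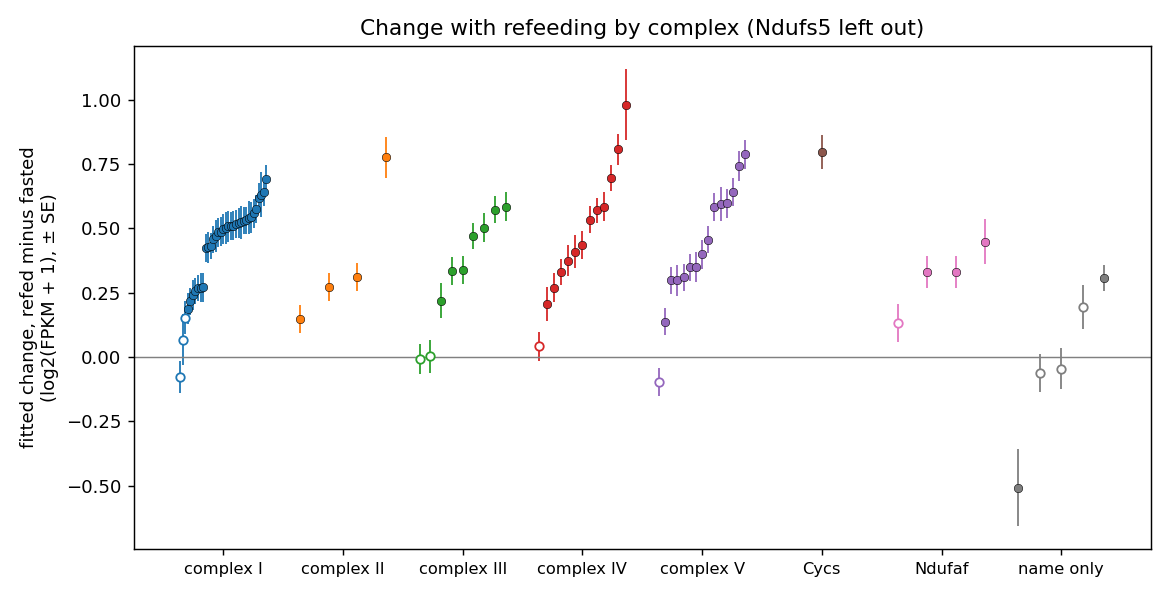
Fitted change of each gene with refeeding (log2(FPKM + 1), refed minus fasted, ± SE over 4 libraries), ordered within each complex; filled points passed the limma test and open points did not. Most points of each complex lie between 0.2 and 0.8, and the open points near 0 include Ndufs7, Uqcrc1, Cyc1, Cox6a2 and Atp5d; Ndufs5 is left out.

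Complex V, the ATP synthase, had 14 of 15 subunits higher, with a median of 0.40. In the catalytic F1 head 4 of 5 subunits rose, with a median of 0.30. Within it Atp5e, the epsilon subunit, stood at 659 and 593 in fasted WT and KR and 952 and 924 in refed WT and KR, a change of 0.58 ± 0.05 (limma adjusted p = 5.07e-05). Atp5d, the delta subunit of the same central stalk, was at 170, 163, 161 and 151, with both refed values below both fasted ones. Its change of -0.10 ± 0.05 did not pass (limma adjusted p = 0.154). The catalytic beta subunit Atp5b rose by 0.30 and the central stalk subunit Atp5c1 by 0.35 (limma adjusted p = 0.00124 and 0.000594).

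All 3 genes for the proton-carrying c ring, Atp5g1, Atp5g2 and Atp5g3, encode the same mature subunit and rose by 0.30, 0.31 and 0.46. Atp5g1 was the lowest of the 3, at 114 and 114 in fasted WT and KR and 148 and 134 in refed WT and KR, and Atp5g3 the highest, at 390, 378, 548 and 506. The 4 peripheral stalk subunits rose with a median of 0.50, led by Atp5o, which joins the stalk to the F1 head, at 149, 134, 237 and 237 with 0.74 ± 0.06 (limma adjusted p = 2.66e-05). The 3 small membrane subunits rose with a median of 0.64. Of these Atp5k, subunit e, stood at 585, 529, 959 and 964, with 0.79 ± 0.06 (limma adjusted p = 1.76e-05). The median transcript length was 544 nucleotides for the 3 small membrane subunits and 1735 for the F1 head. The part of length in their different rises was not tested.

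The Ndufaf assembly factors of complex I were present at lower levels than its subunits, with a median FPKM of 19.3, 18.1, 23.4 and 22.5, against 131, 131, 166 and 159 for the subunits. Their refeeding changes had a median of 0.33, against 0.49 for complex I subunits, and 3 of 4 rose. Ndufaf1 stood at 7.67, 8.11, 11.9 and 10.4, with 0.45 ± 0.09 (limma adjusted p = 0.00258). Ndufaf2 and Ndufaf3 each rose by 0.33 ± 0.06. Ndufaf4 was at 11, 9.04, 12.0 and 10.1, with 0.13 ± 0.08 (limma adjusted p = 0.162).

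Assembly factors without an Ndufaf name were known for each complex, and of 32 tested 12 rose, 2 fell and 18 did not pass, with a median of 0.11. The shares over all genes tested were 27.7% higher and 29.2% lower. Counted by complex, 4 of 6 rose for complex I, 1 of 3 for complex II, 1 of 4 for complex III, 6 of 16 for complex IV and 0 of 3 for complex V. No test was made of the difference between assembly factors and subunits. Their transcripts also differed in length. The medians were 2309.5 nucleotides for the 32, 1482.5 for the Ndufaf factors and 891.5 for subunits with Cycs. Short transcripts rose more across the data, and the part of length in the difference was not tested. Cox16, an assembly factor of complex IV, stood at 18.7 and 19.1 in fasted WT and KR and 32.8 and 31.9 in refed WT and KR, a rise of 0.74 (limma adjusted p = 4.54e-05). The 2 that fell were Cox18, which inserts a complex IV subunit into the membrane, with -0.57, and Sdhaf1, an iron-sulfur assembly factor of complex II, with -0.50 (limma adjusted p = 0.000327 and 0.000217).

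Of the genes matched by name only, 1 of 5 rose, 1 fell and 3 did not pass. Cox7a2l, a factor that joins complexes III and IV into supercomplexes, stood at 493 and 565 in fasted WT and KR and at 617 and 692 when refed, a change of 0.31 ± 0.05 (limma adjusted p = 0.000969). Ndufa4l2, a paralogue of Ndufa4 known to be induced under low oxygen, was scarce at 2.09, 2.06, 0.895 and 1.47, on 40, 40, 11 and 11 fragments, and fell by 0.51 on the log2 scale (limma adjusted p = 0.0178); the counting interval of its KR pair, from -0.90 to 0.27, included 0. Ndufa4 itself was at 319 or more in each library, so the 2 paralogues differed in level and moved in opposite directions. Cox4nb, Atp5s and Atp5sl, which are no respiratory subunits, changed by 0.19, -0.06 and -0.05 and did not pass.

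Genes that feed or use the chain gave a mixed picture, where 27.7% of all genes tested rose and 29.2% fell. Of 16 genes for other electron entry points and ubiquinone synthesis, 8 rose and 2 fell. Coq7 and Adck3, of ubiquinone synthesis, rose by 0.62 and 0.59 (limma adjusted p = 9.03e-05 and 0.000676), and Coq9 and Coq5 of the same route fell by 0.37 and 0.26 on the log2 scale (limma adjusted p = 0.00115 and 0.00887). Of 12 genes for ATP handling and coupling, 8 rose and 2 fell. Usmg5, a small protein of the ATP synthase dimer, rose by 0.86, and Atpif1, the ATP synthase inhibitor, by 0.60 (limma adjusted p = 2.01e-05 and 9.75e-05). The outer membrane channels Vdac1 and Vdac3 fell by 0.47 and 0.43 on the log2 scale (limma adjusted p = 0.000128 and 0.000346). Both Higd1a and Higd2a, linked to supercomplexes, rose, by 0.43 and 0.34 (limma adjusted p = 0.0104 and 0.00154).

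A list of 18 tested genes covered mitochondrial gene expression and the copying of mitochondrial DNA. None rose and 8 fell, with a median of -0.09. Among the 8 were Polg, Polg2 and Peo1, which copy mitochondrial DNA, and Mtor, a general nutrient kinase. Over all genes tested, 27.7% rose and 29.2% fell. The 18 genes had a median transcript length of 4160 nucleotides. Among tested genes above 1600 nucleotides, with the oxidative phosphorylation genes left out, 22.7% rose and the median change was -0.06. The part of length in the changes of the 18 genes was not tested. Nrf1, the factor whose letters are in capitals in the Cycs and Atp5k promoters above, stood at 23.6 and 21.3 in fasted WT and KR and 9.19 and 10.6 in refed WT and KR. Both refed values were below both fasted ones, and the change was -1.11 (limma adjusted p = 2.88e-05). Polg, the mitochondrial DNA polymerase, changed by -0.62, and Yy1 by -0.46 (limma adjusted p = 0.000287 and 0.000389). The GABP subunit Gabpa, whose row overlaps that of Atp5j, did not pass, with 0.15 (limma adjusted p = 0.146), nor did Tfam, the packaging factor of mitochondrial DNA, with 0.11 (limma adjusted p = 0.198). The coactivators Ppargc1a and Ppargc1b were under 1 FPKM in every library and were not tested.

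By promoter letters, the 17 genes with an ETS match had a median refeeding change of 0.57, and the smallest change among them was 0.24. The 55 without a match had a median of 0.43. All 17 with a match and 46 of the 55 without rose, against 27.7% of all genes tested. The 12 genes with an NRF1 match had a median of 0.31, against 0.46 for the 60 without, and 10 and 53 of them rose. The medians with and without the YY1 letters were 0.42 and 0.46, and those with and without the receptor letters 0.53 and 0.45. With and without the YY1 letters 9 of 12 and 54 of 60 rose. For the receptor letters it was 3 of 4 and 60 of 68. These are descriptions of the windows found, with no test.

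Short transcripts moved up more than long ones across the whole data, and many subunits are short. Over the 77 genes that are subunits or Cycs, Ndufs5 left out, the Spearman correlation of the refeeding change with transcript length was -0.378, and over 11428 tested genes with a length it was -0.277; genes are not independent replicates. In the class of at most 800 nucleotides, 94.1% of 34 subunit genes (Cycs counted with them) rose with a median of 0.51, against 67.6% of 278 other genes with a median of 0.36. From 800 to 1600 nucleotides, 88% of 25 subunits rose with a median of 0.47, against 47.5% of 1534 other genes with a median of 0.19. Above 1600 nucleotides, 84.2% of 19 subunits rose with a median of 0.34, against 22.7% of 9529 other genes with a median of -0.06. In each class the share and the median of the subunits were above those of the other genes, and the part of length in the change was not tested further. Length here is that of the longest protein-coding transcript, which need not be the one measured. In fasted WT, Atp5g1 (4715 nucleotides) had 1776 fragments at 114 FPKM, and Atp5a1 (2674 nucleotides) had 25905 at 446. The long class can therefore hold genes measured on shorter transcripts. With the length implied by fragments and FPKM, the correlations were -0.385 and -0.294.

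**Figure D3:**
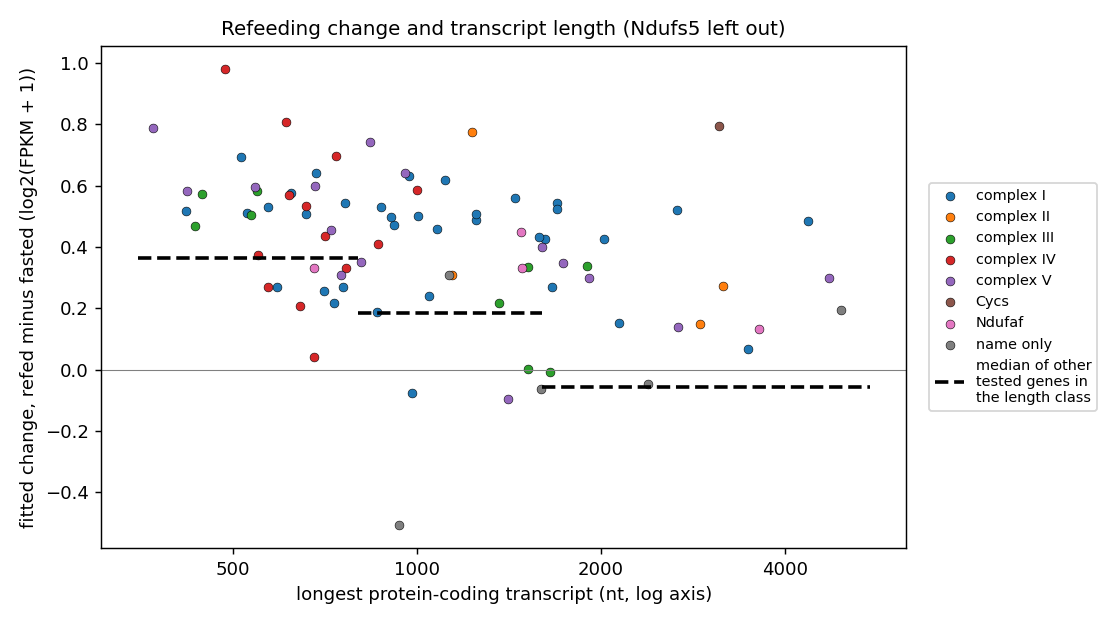
Fitted refeeding change (log2(FPKM + 1)) of each gene against the length of its longest protein-coding transcript (nucleotides, log axis), with the median of the other tested genes in 3 length classes as dashed lines. The dashed medians step down from 0.36 to 0.19 and -0.06, and most subunits lie above the dashed line of their class; Ndufs5 is left out.

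Markers of other cells moved with refeeding too, where 27.7% of all genes tested rose and 29.2% fell. All 4 tested fibroblast markers fell, with summed levels of 25.6 and 26.8 in the fasted and 13.4 and 15.7 in the refed libraries; Col1a1 changed by -1.15 (limma adjusted p = 7.91e-05). Of 4 endothelial markers 2 fell and 1 rose, with summed levels of 17.7, 13.3, 14.0 and 12.8. Esam, the 1 that rose, made up 8.26, 7.75, 9.84 and 9.35 of these sums. Of 5 macrophage markers 2 fell, with sums of 216, 193, 179 and 153. The highest single marker made up 170.3, 149.1, 142.2 and 119.5 of these sums. Of 6 beta cell markers with a value 4 rose, led by the glucose transporter Slc2a2 with 1.03. Of 4 alpha, delta and PP cell markers 1 rose, Ppy by 0.55. Of 3 duct markers 2 rose, of which Krt19 rested on 40, 21, 55 and 13 fragments. Cela1, the 1 acinar marker tested, rose by 0.47. Among the untested acinar markers, Ctrb1 was at 0, 0.838, 0.993 and 1.62 FPKM and Prss2 at 0, 0, 0.0909 and 1.63, highest in refed KR, and Pnlip was under 0.1 in each library. Fabp4, the 1 adipocyte marker tested, stood at 5.06, 1.58, 3.38 and 0.85 and changed by -0.47 (limma adjusted p = 0.00831), and the adipocyte markers Adipoq, Plin1, Cfd and Lep were at 0 in every library. The part of these shifts in the rise of the respiratory genes was not tested.

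The comparison of KR with WT asks which transcripts differ with the altered FoxO1 gene. The acetylation of FoxO1 is not among the values analysed here. None of the 87 genes passed this test in limma with Benjamini-Hochberg adjustment; 17 had an unadjusted p under 0.05, of which 3 were higher and 14 lower in KR, against 4.62% and 11.7% of all genes tested at that threshold. After adjustment, 0.602% of all genes were called higher and 0.661% lower (1.26% in either direction). The median difference was -0.06 over the 87 and -0.04 over all genes. In single pairs the median over the 87 was -0.02 in the fasted libraries and -0.09 in the refed ones, against -0.03 and -0.05 over all genes. In the refed pair 76 of 87 were below 0, against 63.9% of all genes, and in the fasted pair 55 of 87, against 59.7%.

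Ndufa5, a supernumerary subunit of complex I, came closest to the threshold. Its FPKM was 177 and 148 in fasted WT and KR and 257 and 215 in refed WT and KR, lower in KR in both feeding states. The difference was -0.26 ± 0.05 (limma adjusted p = 0.0646), and it passed with a minimum mean of 5 FPKM (adjusted p = 0.0402) and with a robust prior (adjusted p = 0.0378). It was the 1 of the 87 called lower in each of those fits, which called 1.7% and 1.09% of all genes lower. Cyc1, with the values given above, was lower in KR by -0.27 ± 0.06 (limma adjusted p = 0.0947). When the implied fragments were fitted with limma-voom, 5 of the 87 were lower in KR (Cyc1, Ndufa5, Ndufaf4, Atp5f1 and Ndufb9) and 1 higher (Cox7a2l), where the same fit called 4.81% of all genes lower and 2.43% higher, so the share among the 87 was near that of all genes.

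**Figure D4:**
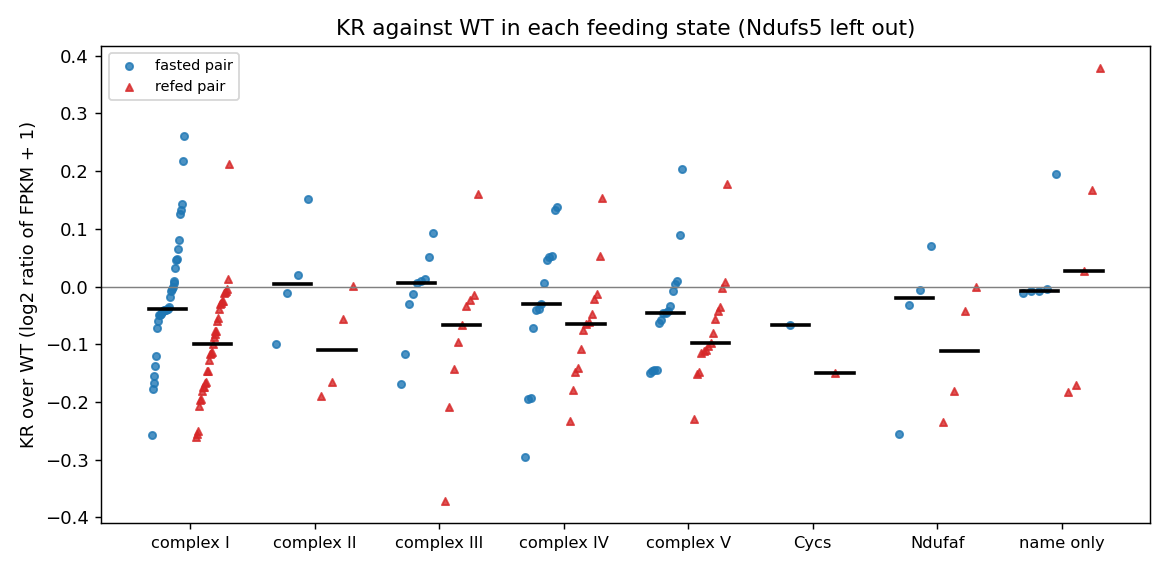
KR over WT (log2 ratio of FPKM + 1) of each gene in the fasted pair (circles) and the refed pair (triangles), by complex, with medians as bars and no replicate behind either pair. Outside -0.3 to 0.3 lie only 2 refed points, Cyc1 at -0.37 and Ndufa4l2 at 0.38, and the refed medians of complexes I to V lie below the fasted ones; Ndufs5 is left out.

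Beta cell markers differed between the genotypes as well. Ins1, Iapp, Slc2a2 and Ucn3 were higher in KR, 4 of 6 tested beta cell markers, with Ins1 at 4320 and 7966 in fasted WT and KR and 3498 and 12196 in refed WT and KR. The sums over the 6 were 40174, 54650, 56813 and 79814, most of it Iapp, at 35463, 46126, 52784 and 66975. Mafa, which did not pass, stood at 27.7, 53.5, 32.8 and 36.8. Among the 4 tested alpha, delta and PP cell markers none passed. The adipocyte marker Fabp4 was lower in KR, by -1.24 (limma adjusted p = 0.00287). The part of cell composition in the respiratory gene levels was not tested.

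No replicate allows a test of whether refeeding acted differently in the 2 genotypes, so the pairs are given side by side. The rise was smaller in KR than in WT for 65 of 87 genes, against 56.1% of all genes tested. The median difference was -0.05 over the 87 and -0.02 over all genes. The 95% counting interval of the difference, which covers counting error only and no animal variation, lay below 0 for 20 of the 87 and above 0 for 3, against 14.2% and 8.99% of all genes tested. These shares and the count of 65 are not like for like, because higher levels carry less counting error and give narrower counting intervals. The median of the mean FPKM was 166 over the 87 and 13.4 over all genes. The 2 responses share no library; across the 77 genes that are subunits or Cycs, Ndufs5 left out, their Spearman correlation was 0.877, and across all genes tested it was 0.873. At least 2-fold changes were rare: 3.51% of all genes in the WT pair and 2.33% in the KR pair, and among the 87 none in WT and Cox7a1 and Ndufs5 in KR, both on few fragments. Between genotypes, 0.243% of all genes in the fasted pair and 0.368% in the refed pair were at least 2-fold apart, and Ndufs5 in the refed pair was the 1 case among the 87.

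Leaving out Ndufs5, the genes whose KR response fell furthest short of the WT response were Ndufab1 (-0.41, counting interval -0.81 to -0.001) and Ndufb4 (-0.38, -0.74 to -0.03), both with wide intervals, and Sdhd (-0.34, -0.43 to -0.25). The refeeding ratio of Sdhd was 0.95 in WT (counting interval 0.89 to 1.01) and 0.61 in KR (0.54 to 0.68). It was higher in KR than in WT when fasted and lower when refed. Cyc1 was at 0.10 in WT (0.03 to 0.18) and -0.10 in KR (-0.19 to -0.01). The 3 genes whose interval lay above 0 were Uqcrh, Atp5o and Atp5e, with Uqcrh at 0.51 in WT (0.43 to 0.58) and 0.66 in KR (0.57 to 0.74).

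**Figure D5:**
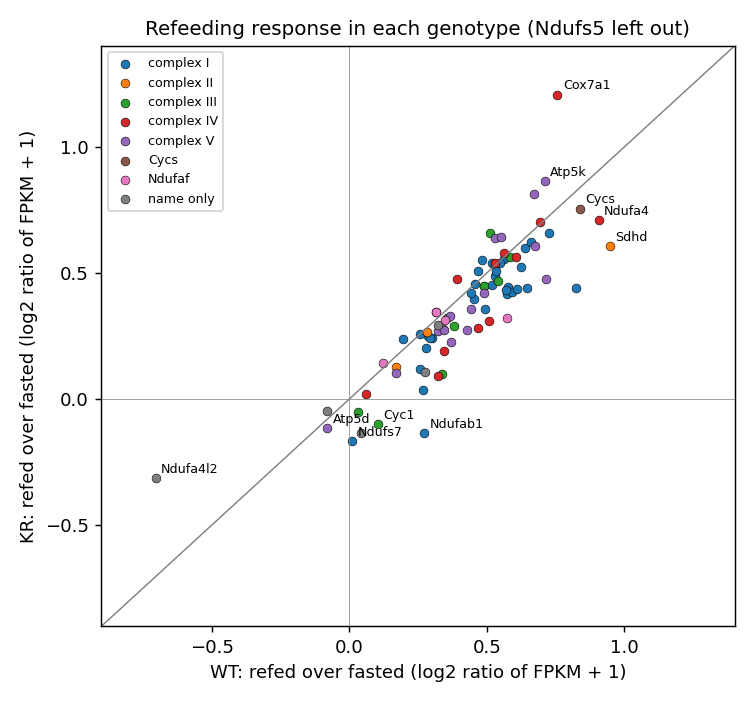
Refeeding response of each gene in KR against that in WT (log2 ratio of FPKM + 1, 1 library per point of each ratio), with the line of equal response. Most points lie above 0 on both axes and more lie below the line than above it; Ndufs5 is left out.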

How the data were processed

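RNA of pooled islets was sequenced from poly-A RNA with an Illumina TruSeq kit, per the labels' protocols. The submitters' processing notes name bcl2fastq 1.8.4, TopHat2 2.0.4 and the mouse build mm9. The authors deposited FPKM values, per the file headers, each with 2 bounds and a status; the program that made them is not given in the sources used here. TruSeq of this kind does not mark strand, so overlapping genes share reads, and near-identical pseudogene copies may split them.

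Rows of 1 symbol were summed, and symbols with a status of OK in all 4 libraries and a mean of at least 1 FPKM were tested, 11953 in all. The model of feeding state and genotype on log2(FPKM + 1) was fitted in R 4.3.3 (limma 3.58.1, variance trended on mean level) with Benjamini-Hochberg adjustment, and it leaves 1 residual degree of freedom beside a prior of 7.58. It counts the interaction as error, and p-values measure only the spread between these pooled libraries and that of other genes. Fold changes are on the log2(FPKM + 1) scale and understate low genes. Implied fragments are the square of FPKM over its standard error, with the upper bound taken as 2 standard errors above the value; 74.5% to 75.3% of those under 100 lay within 0.05 of a whole number. The fit was tested on simulated data. Promoter windows are from RefSeq on GRCm38.p6 and transcript lengths from GENCODE M21, neither in mm9 coordinates. The genes, lists and tests were chosen with earlier results of these data known. The genes named by rule are the largest changes, the highest and lowest levels, the assembly factors and the paralogue sets of each complex; others were named after their values were seen, to account for genes that did not pass or stood out.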

Additional observations from a re-analysis of the deposited data

Results flagged for a closer look

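Cyc1 changed with refeeding by -0.10 in KR and 0.10 in WT (log2 ratios of single libraries), opposite signs in the 2 genotypes with both counting intervals clear of 0. Sdhd differed between KR and WT by -0.19 in the refed pair and 0.15 in the fasted pair. Uqcrfs1, the Rieske protein of complex III, differed by -0.14 in the refed pair and 0.09 in the fasted pair. With 1 library per group the difference was not tested for any of the 3 genes, and a shallower refed KR library stands on 1 side of each of these comparisons.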

How the results depend on the processing

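The rise with refeeding kept its direction and its median under each alternative run, and the 74 calls were shared in full with a pseudocount of 0.1, with a robust prior, after rescaling by the median of ratios, with voom and without symbols of several rows; 73 were shared with a minimum mean of 5 FPKM and 69 without the trend. Without a filter on low values limma called 0 genes higher and 0 lower with refeeding over the whole table, and 65 and 1 of the 87 had an unadjusted p under 0.05. The lower count was 1 with a minimum mean of 5 FPKM and with a robust prior, and 0 among genes with at least 20 fragments in each library, an alternative chosen after seeing the data. In KR the lower count was 1 with the minimum of 5 and with the robust prior, where 1.7% and 1.09% of all genes were called lower, and voom gave 1 higher and 5 lower, where 2.43% and 4.81% of all genes were called. Uqcrc1 changed sign after rescaling, from -0.0083 to 0.0029; the cause was not tested. Leaving out 1 library leaves 1 complete pair for each factor, so it only returns the medians of the single pairs and is no further check. These were 0.3963 (KR) and 0.4679 (WT) for refeeding, and -0.0883 (refed) and -0.0181 (fasted) for genotype. No paired analysis was possible because each group has 1 library.

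Limits: each group is 1 pool, feeding state goes with depth, and a change of 0.25 on the log2 scale was recovered less often than larger ones on simulated data (30% for refeeding and 42% for genotype, against 86% at 0.5, with 50 changed genes of each size among 11953). The simulated noise came from the fitted variance. In the data 56.9% of genes were called for refeeding, which makes the adjusted threshold less strict than in the simulation. Sdha passed there with a change of 0.15. The simulated shares therefore do not give the sensitivity of the refeeding test.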
